A study of Mus musculus with 12 samples.

Results

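The AMPA and kainate receptor subunit genes Gria1 to Gria4 and Grik1 to Grik5 were described across the development of the mouse cerebral cortex. They were taken by name, with Ensembl identifiers paired to symbols, and all 9 were found among the 50600 identifiers of the count tables. The study sequenced poly(A)+ RNA of cerebral cortex from mice of the C57BL/6 strain, taken at embryonic day 11 (E11), embryonic day 13 (E13), embryonic day 17 (E17) and postnatal day 1 (P1). There were 3 libraries per age, each made from 1 animal, and the 3 animals were of different litters. The libraries of an age are called A, B and C, and values per library are given in that order. The labels name no altered allele and no agent, and age was the factor compared. The title of the study concerns zinc, and glutamate receptors were measured along with all other genes.

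AMPA and kainate receptors are ion channels opened by glutamate, the main excitatory transmitter of the cortex. Each is built of 4 subunits around a central pore, and the subunit mix sets how fast the channel closes, how much calcium it passes and where it is placed. AMPA receptors carry most fast excitatory transmission at mature synapses, whereas kainate receptors act both before and after the synapse and modulate release. GluA2, the product of Gria2, makes AMPA receptors nearly impermeable to calcium once a codon in its transcript has been edited. GluK1, GluK2 and GluK3 (Grik1, Grik2 and Grik3) can form kainate channels by themselves, while the high-affinity subunits GluK4 and GluK5 (Grik4 and Grik5) need one of them as a partner.

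The edited position is the Q/R site in the pore loop, and its codon is shown here because its editing sets the calcium permeability of channels that hold GluA2. GluK1 and GluK2 transcripts are also known to be edited there. The stretch of 27 bases around it was read from the longest coding transcript of each gene in GENCODE M21 (build GRCm38), with the codon of the Q/R site in capitals.
Gria1: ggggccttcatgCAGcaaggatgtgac
Gria2: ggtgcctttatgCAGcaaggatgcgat
Gria3: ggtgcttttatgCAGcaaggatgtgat
Gria4: ggtgcctttatgCAAcaaggatgtgac
Grik1: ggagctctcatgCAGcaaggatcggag
Grik2: ggagctctcatgCAGcaaggttctgag
Grik3: ggctccctgatgCAGcaaggatctgaa
Grik4: ggaggcttcatgCAGcaaggctccact
Grik5: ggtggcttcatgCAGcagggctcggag
Of the 27 bases, 23 to 25 were the same as in Gria2 in the other AMPA genes, and 19 or 20 were the same in the kainate genes. The codon was CAG in all genes but Gria4, where it was CAA. The genome encodes glutamine in Gria2 as in its relatives, and the arginine of the mature channel comes from A-to-I editing by ADAR2, the product of Adarb1. Counts per gene do not show whether a transcript was edited, nor which of the flip and flop exons it carried.

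Library totals were 28173745 to 45858712 counts, and all 9 genes had counts in all 12 libraries. They had 4027 (Grik4) to 157341 (Gria2) counts in sum over the libraries. All 8 markers of cortical excitatory neurons were counted in each library, and their summed level was 367 to 429, 1130 to 1520, 2290 to 2700 and 1920 to 2030 CPM (a gene's counts relative to the TMM-scaled total of its library) from E11 to P1. The 10 pan-neuronal genes summed to 1370 to 1610, 2790 to 3380, 12000 to 12300 and 12200 to 12500 CPM. E11 C stood apart in its GABAergic markers, at 46.9 CPM against 4.04 and 6.85 CPM in the other E11 libraries. E13 C had 67.0 CPM of GABAergic markers against 22.6 and 30.7 CPM in the other E13 libraries. Lhx6 was again lowest, at 5.49 CPM in E13 C against 6.64 and 7.83 CPM. Choroid plexus markers summed to 38.4 CPM in E13 C against 341 and 387 CPM in the other E13 libraries. Meningeal fibroblast markers summed to 14.0 to 52.5 CPM at E17 and P1 and to 791 to 1430 CPM at E11 and E13. Erythroid genes summed to 45.6 to 83.9 CPM at P1 and 5740 to 16500 CPM at E11, and choroid plexus markers to 0.879 to 0.954 CPM at P1 and 86.3 to 261 CPM at E11. Oligodendrocyte precursor markers summed to 300 to 323 CPM at P1 and 45.8 to 52.3 CPM at E11. The part of these cell types in the results was not tested. In bulk tissue, fewer cells of a type and less RNA per cell cannot be told apart.

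All 9 subunit genes changed across the 4 ages in edgeR's quasi-likelihood test at an adjusted p of 0.05, as did 90.2% of the 17847 genes tested. Most calls were rises between E11 and E17. E13 compared with E11 had 8 members higher and 1 lower, where 22.6% of all tested genes were higher and 17.5% lower (40.1% in all). E17 compared with E13 had 8 members higher and none lower, where 36.8% of genes were higher and 37% lower (73.8% in all). P1 compared with E17 had 2 members higher and none lower, where 24% of genes were higher and 25.9% lower (49.9% in all). Over the whole span, P1 compared with E11, all 9 members were higher, where 40.5% of genes were higher and 41.8% lower (82.3% in all). The median log2 fold change of the members was 1.07, 2.31, -0.04 and 2.97 in the 4 comparisons in this order. Over all tested genes it was 0.00, -0.04, 0.00 and -0.04.

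**Figure D1:**
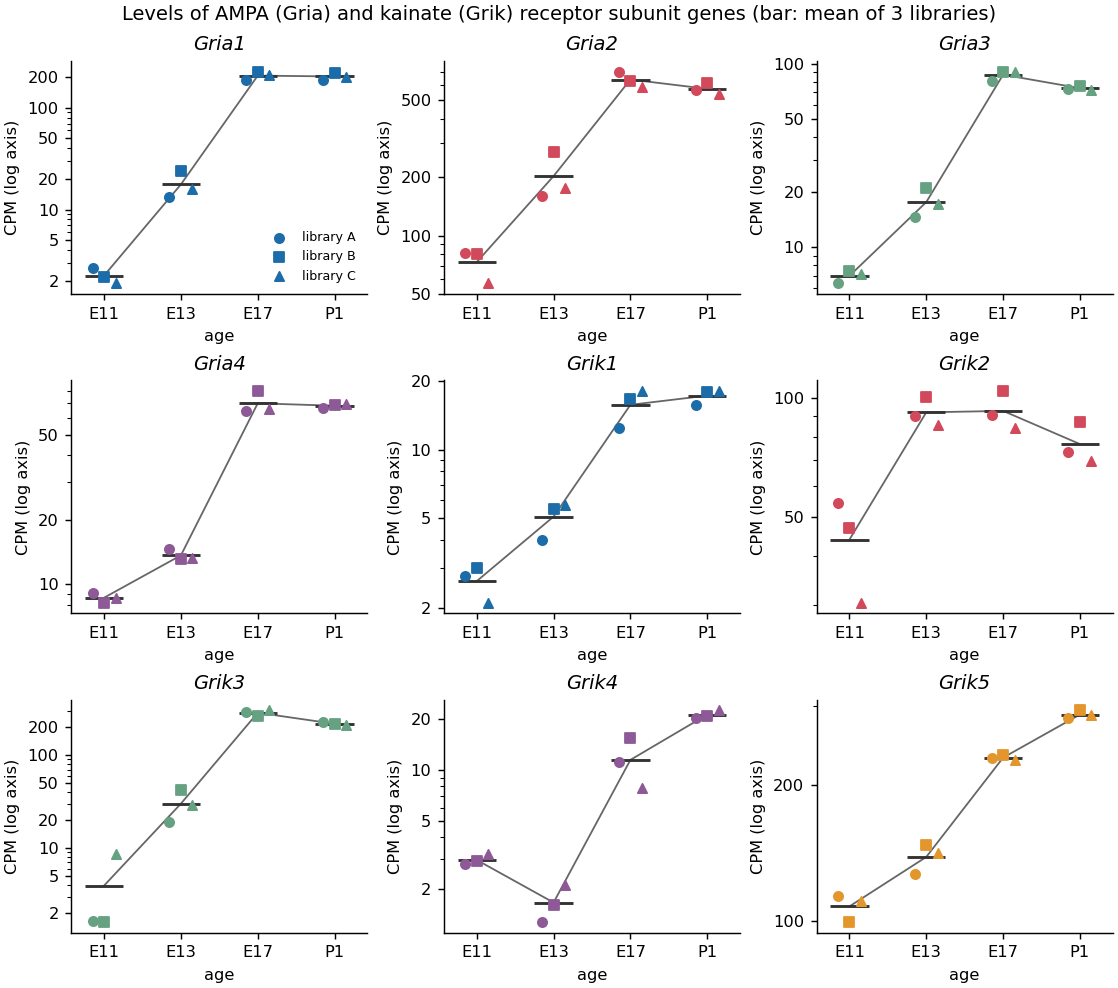
Level of each subunit gene in CPM on a log axis at each age, with 1 symbol per library (A, B, C) and a bar at the mean of the 3. Gria1 and Grik3 rise most, Grik4 is lowest at E13, and Grik2 has overlapping libraries at E13 and E17.

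The 4 AMPA subunit genes rose at both embryonic steps. Gria1 (ENSMUSG00000020524, chr11:57011387-57330244, plus strand of GRCm38) encodes GluA1, the subunit best known for its insertion into synapses during plasticity. It had 2.659, 2.181 and 1.879 CPM at E11 and 13.31, 23.69 and 15.96 CPM at E13. The E17 libraries had 186, 227 and 208 CPM and the P1 libraries 186, 221 and 203 CPM. The ages E11, E13 and E17 did not overlap, whereas E17 and P1 did. Gria1 was 7.84-fold higher at E13 than at E11 (log2 fold change 2.97 ± 0.24 SE, adjusted p = 3.05e-06) and 11.7-fold higher at E17 than at E13 (3.55 ± 0.17 SE, adjusted p = 7.3e-09). At P1 it stood 90.3-fold above E11, the largest rise among the members with all libraries fitted. Without E11 C the rise of Grik3 (7.06 on the log2 scale) was the larger.

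Gria2 (ENSMUSG00000033981, chr3:80681450-80802835, minus strand), which encodes the edited subunit GluA2, had the highest mean per length among the AMPA genes at every age. Its level was 81.5, 80.7 and 56.7 CPM at E11 and 160, 271 and 177 CPM at E13. It reached 702, 629 and 587 CPM at E17 and had 562, 615 and 538 CPM at P1. A microRNA gene, Gm25749, shares 111 bases with exons of Gria2 on the same strand and had 3667 counts of its own. E13 library B was the highest of its age for Gria1, Gria2 and Gria3. Gria2 was 2.78-fold higher at E13 than at E11 (adjusted p = 0.000158) and 3.15-fold higher at E17 than at E13 (adjusted p = 1.24e-05). From E11 to P1 its rise was 7.83-fold, so it gained far less than Gria1.

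Gria3 (ENSMUSG00000001986, chrX:41400854-41678601, plus strand) encodes GluA3. It averaged 6.97 ± 0.55, 17.6 ± 3.31, 87.4 ± 5.42 and 73.8 ± 2.16 CPM in order of age (SD, n = 3 each). At P1 it had 73.5, 76.1 and 71.8 CPM, each below the 81.1, 90.2 and 90.8 CPM at E17. The log2 fold change between those ages was -0.24 ± 0.10 SE and missed the threshold (adjusted p = 0.0588). It passed in 6 of the alternative runs, among them limma-voom (adjusted p = 0.0206) and the fit of the E17 and P1 libraries alone (adjusted p = 0.00443). Without E13 A its adjusted p was 0.0176 and without E13 B 0.0101.

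Gria4 (ENSMUSG00000025892, chr9:4417896-4796234, minus strand) encodes GluA4, a subunit of fast AMPA receptors that is known from early circuits and from interneurons. It averaged 8.65 ± 0.47, 13.7 ± 0.78, 70.2 ± 8.56 and 68.3 ± 1.55 CPM at the 4 ages (SD, n = 3 each). It had the smallest early rise of the AMPA genes, 1.58-fold at E13 compared with E11 (adjusted p = 7.51e-05). At E17 compared with E13 it was 5.13-fold higher (adjusted p = 3.77e-11), against 4.96-fold for Gria3. GABAergic markers summed to 391 to 466 CPM at E17 and 22.6 to 67.0 CPM at E13. All 9 markers were higher at E17 than at E13, where 36.8% of all tested genes were higher. Their part in the level of Gria4 was not tested.

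The kainate subunit genes did not move as a block. Grik1 (ENSMUSG00000022935, chr16:87895900-88290265, minus strand) encodes GluK1, a subunit with a restricted pattern in the brain. It averaged 2.62 ± 0.47, 5.05 ± 0.94, 15.8 ± 2.94 and 17.3 ± 1.31 CPM in order of age (SD, n = 3 each). It was 1.92-fold higher at E13 than at E11 (adjusted p = 0.00138) and 3.13-fold higher at E17 than at E13 (adjusted p = 8.84e-07). The libraries of E17 and P1 overlapped.

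Grik2 (ENSMUSG00000056073, chr10:49094833-49788766, minus strand), which encodes the widely expressed pore-forming subunit GluK2, rose early and then stopped. It had 54.3, 47.1 and 30.5 CPM at E11 and 90.2, 100.6 and 85.5 CPM at E13. It had 90.6, 104 and 83.8 CPM at E17 and 73.2, 87.2 and 69.4 CPM at P1. All E13 libraries lay above all E11 libraries, E13 and E17 overlapped throughout, and P1 overlapped E17. The rise at E13 was 2.09-fold (adjusted p = 0.000795). E17 against E13 gave 0.01 ± 0.17 SE on the log2 scale (adjusted p = 0.958). Grik2 was the only member that did not rise past the threshold between these ages. All 10 pan-neuronal genes and 36.8% of all tested genes rose between them. P1 against E17 gave -0.28 ± 0.17 SE (adjusted p = 0.214), which passed without E11 C (adjusted p = 0.0396).

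Grik3 (ENSMUSG00000001985, chr4:125490700-125714173, plus strand), which encodes GluK3, had the largest rise among the kainate genes and depended most on 1 library. Its level was 1.65, 1.59 and 8.57 CPM at E11, from 56, 54 and 269 counts. At E13 it was 19.2, 41.8 and 29.3 CPM. The E17 libraries had 294, 263 and 303 CPM and the P1 libraries 226, 217 and 210 CPM. E11 C was the highest E11 library for Grik3 and was the lowest for Gria1, Gria2, Grik1 and Grik2. The same library was the one with the high sum of GABAergic markers, although its Lhx6 and Npy were the lowest of that age. The part of these markers in the level of Grik3 was not tested. Grik3 was 7.76-fold higher at E13 than at E11 (log2 fold change 2.96 ± 0.55 SE, adjusted p = 0.00242), and without E11 C the log2 fold change was 4.21 (adjusted p = 2.13e-05). At E17 it was 9.55-fold higher than at E13 (adjusted p = 0.000153). At P1 it was 56.2-fold above E11 (log2 fold change 5.81), and 7.06 on the log2 scale without E11 C. Each P1 library lay below each E17 library for Grik3. The log2 fold change of -0.40 ± 0.41 SE between them missed the threshold (adjusted p = 0.461), also without E11 C (adjusted p = 0.13). Among the alternatives it passed only when the E17 and P1 libraries were fitted alone (adjusted p = 0.000424).

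Grik4 (ENSMUSG00000032017, chr9:42518135-42944493, minus strand), which encodes the high-affinity subunit GluK4, was the only member lower at E13 than at E11. It had 2.78, 2.89 and 3.19 CPM at E11 from 94, 98 and 100 counts, and 1.27, 1.6 and 2.10 CPM at E13 from 48, 57 and 68 counts. It had 11.1, 15.5 and 7.79 CPM at E17 and 20.3, 20.8 and 22.4 CPM at P1. No neighbouring ages overlapped, and the E17 libraries were the most spread. The log2 fold change of E13 against E11 was -0.84 ± 0.25 SE (adjusted p = 0.0193). This call was lost in limma-voom (adjusted p = 0.0605), without E11 C (0.059), without E13 A (0.0753) and without E13 B (0.0673), with E13 the lower age in each of these runs. Grik4 was then 6.9-fold higher at E17 than at E13 (adjusted p = 2.38e-07) and 1.86-fold higher at P1 than at E17 (adjusted p = 0.00263).

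Grik5 (ENSMUSG00000003378, chr7:25009849-25072346, minus strand), which encodes the other high-affinity subunit GluK5, rose at each of the 3 steps. It averaged 108 ± 7.35, 138 ± 10.6, 230 ± 2.76 and 287 ± 5.76 CPM at the 4 ages (SD, n = 3 each). It was 1.29-fold higher at E13 than at E11 (adjusted p = 0.000414), 1.66-fold higher at E17 than at E13 (adjusted p = 9.8e-08) and 1.25-fold higher at P1 than at E17 (adjusted p = 0.000722). Grik4 and Grik5 were the 2 members that rose between E17 and P1. Over the whole span Grik5 rose 2.67-fold, and Grik2, with 1.74-fold, had the smallest rise of all members.

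**Figure D2:**
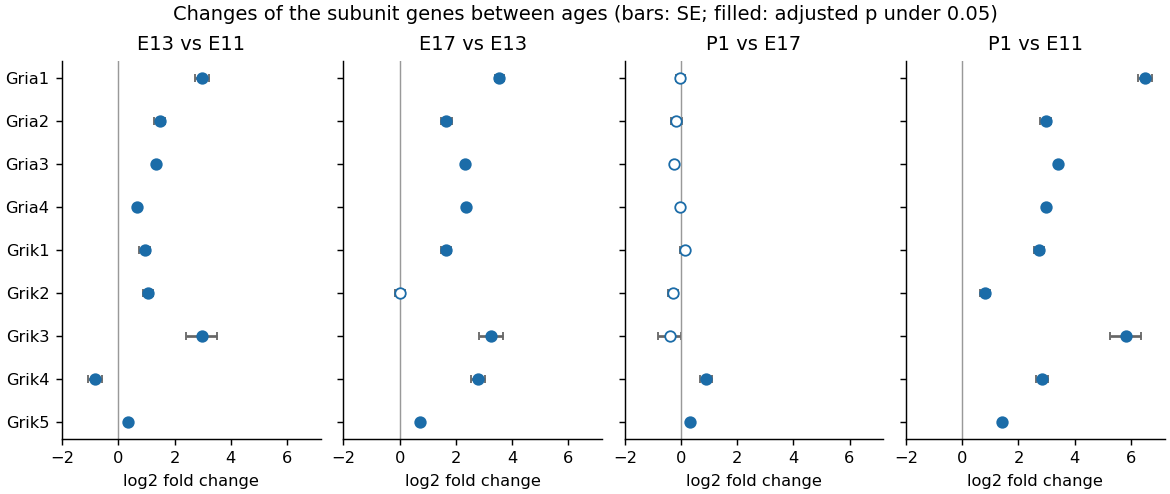
Log2 fold change of each subunit gene, later against earlier age, in the 4 comparisons, with SE bars and filled points where the adjusted p was under 0.05. The points lie right of 0 for P1 vs E11, with Gria1 at 6.50 and Grik3 at 5.81, and lie between -0.40 (Grik3) and 0.89 (Grik4) for P1 vs E17, where Grik4 and Grik5 are filled.

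Levels of different genes were compared only per length, as CPM per kilobase of the union of a gene's exons (CPM per kb), with coding length as an alternative. The exon union was 5168 bp for Grik5 to 15548 bp for Gria2, while coding lengths were 2649 to 2937 bp. At E11 Grik5 stood first at 20.8 ± 1.42 CPM per kb and Gria2 second at 4.69 ± 0.91, followed by Grik2 at 3.32 ± 0.92 (SD, n = 3 each). The libraries of Gria2 and Grik2 overlapped, and so did neighbours in the order among Grik4, Grik3, Grik1 and Gria1, which lay at 0.37 to 0.49 CPM per kb. At E13 the order began with Grik5 at 26.8 ± 2.06, Gria2 at 13.0 ± 3.87 and Grik2 at 6.95 ± 0.58 CPM per kb, and ended with Grik4 at 0.28 ± 0.07. At E17 Grik5 (44.5 ± 0.53) and Gria2 (41.1 ± 3.73) overlapped, as did Gria1 (34.3 ± 3.32) and Grik3 (32.0 ± 2.39). At P1 Grik5 led at 55.5 ± 1.11 CPM per kb, Gria2 (36.8 ± 2.53) and Gria1 (33.6 ± 2.87) overlapped, and Grik3 followed at 24.3 ± 0.91. The last places were held by Grik4 at 3.55 ± 0.18 and Grik1 at 2.58 ± 0.20 CPM per kb. By coding length Grik5 still led at E11, but Gria2 led at E13, E17 and P1, so the first place depended on the length used.

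The mix of AMPA subunits changed across the ages. A share is given as the percentage of the family's summed CPM per kb. Gria2 held 67.4, 68.3 and 60.2% at E11 and 63.2, 68.2 and 63.7% at E13. The E17 libraries gave 47.8, 40.5 and 41.1% and the P1 libraries 42.5, 41.8 and 40.0%. The E17 and P1 libraries lay below all E11 and E13 libraries. Gria1 averaged 5.18 ± 0.46, 14.5 ± 0.91, 35.9 ± 2.83 and 37.9 ± 1.4% (SD, n = 3 each), so it neared Gria2 by P1. Gria4 averaged 19.4 ± 2.85, 11.4 ± 3.03, 11.6 ± 0.97 and 12.2 ± 0.66% and Gria3 8.45 to 10.1% (SD, n = 3 each). The exact permutation test across the 4 ages, two-sided and adjusted over the 9 subunits, gave p = 0.000731 for Gria1, 0.00906 for Gria2, 0.0179 for Gria4 and 0.365 for Gria3. Between 2 ages this test cannot go below 0.1, and Gria1 and Gria2 reached that value for E17 against E13, by 21.4 and -21.9 percentage points. Gria1 and Gria4 reached it for E13 against E11, by 9.36 and -8.08 points, and Gria4 gave 1.0 for E17 against E13 (0.28 points). By coding length Gria2 averaged 80.2, 80.5, 64.1 and 62.8% and Gria1 2.41, 6.81, 20.3 and 21.7%. This moved the shares of Gria1 and Gria2 in the same directions but left Gria2 the majority at P1. On that scale Gria4 averaged 9.52, 5.61, 6.89 and 7.37% and Gria3 7.82, 7.09, 8.74 and 8.07%. The mean share of Gria3 was thus the larger at E13, E17 and P1, so the order of Gria3 and Gria4 depended on the length used.

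**Figure D3:**
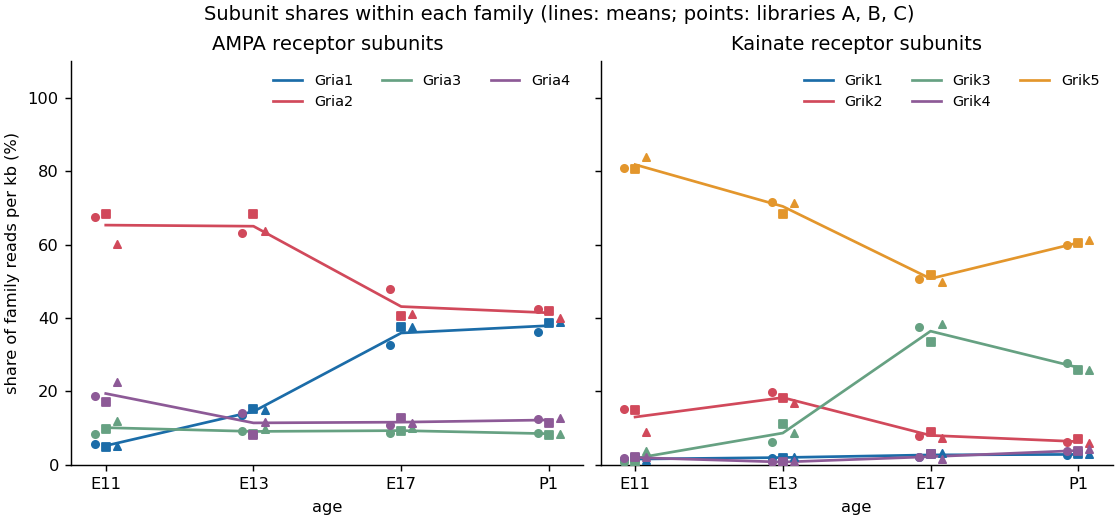
Share of each subunit in its family's summed CPM per kb of exon union, in percent, at each age, with lines through the means and 1 symbol per library. Gria2 drops to 41.4% and Gria1 climbs to 37.9% at P1, while Grik3 takes 36.4% of the kainate family at E17 and Grik5 stays the largest kainate share.

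Within the kainate family Grik5 held 80.9, 80.5 and 83.9% at E11, 71.5, 68.2 and 71.4% at E13, 50.6, 51.6 and 49.9% at E17 and 59.9, 60.5 and 61.2% at P1. No age overlapped another, and the lowest share was that of E17. Grik3 held 0.68, 0.74 and 3.75% at E11, 6.23, 11.1 and 8.54% at E13, 37.4, 33.5 and 38.4% at E17 and 27.7, 25.8 and 25.9% at P1, also with no overlap. Grik2 was highest at E13 with 18.3 ± 1.51%, against 13.0 ± 3.46% at E11, and fell to 7.99 ± 0.93% at E17 and 6.30 ± 0.65% at P1 (SD, n = 3 each). Grik1 and Grik4 stayed under 5% at all ages. All 5 kainate shares changed across the ages in the exact permutation test, with adjusted p = 0.000195 for Grik2, Grik3 and Grik5, 0.000818 for Grik4 and 0.0114 for Grik1. The unadjusted p of Grik2, Grik3 and Grik5 was 6.49e-05, the smallest this test can give. By coding length Grik3 exceeded Grik5 at E17, at 46.0 ± 3.10 against 34.7 ± 0.68% (SD, n = 3 each), and Grik5 was again the larger at P1.

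Summed per family, AMPA genes had 7.14 ± 0.95, 19.9 ± 5.0, 95.4 ± 4.02 and 88.7 ± 5.25 CPM per kb in order of age (SD, n = 3 each). Kainate genes had 25.4 ± 1.59, 38.1 ± 3.8, 87.7 ± 0.44 and 91.6 ± 1.69 CPM per kb (SD, n = 3 each). The ratio of AMPA to kainate was 0.238 to 0.319 in the E11 libraries, 0.467 to 0.612 at E13, 1.04 to 1.14 at E17 and 0.934 to 1.01 at P1. By coding length its mean was 0.609, 0.994, 1.67 and 1.57 at the 4 ages, so at P1 the mean ratio was above 1 by coding length and below 1 by exon union. In both versions the ratio was higher in each E17 library than in each E13 library.

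Set against the summed counts of 10 pan-neuronal genes, the members took different courses. The 10 genes weigh unequally in this sum, as Tubb3 averaged 2959 CPM and Nefl 123 CPM at E17. They also rose unequally, by log2 fold changes of 0.78 (Rbfox3) to 3.77 (Nefl) at E17 against E13. The courses below therefore hold for this sum. Gria2 had 49.0 ± 12.3, 65.5 ± 12.8, 52.8 ± 5.47 and 46.4 ± 3.72 counts per 1000 counts of the 10 pan-neuronal genes at E11, E13, E17 and P1 (SD, n = 3 each). Gria4 lay at 4.50 to 5.79 and Grik1 at 1.30 to 1.76 on average on the same scale. Gria3 averaged 4.66 ± 0.65, 5.73 ± 0.51, 7.21 ± 0.37 and 5.98 ± 0.25, and Grik4 1.96 ± 0.15, 0.54 ± 0.14, 0.95 ± 0.32 and 1.71 ± 0.06, with its low at E13 (SD, n = 3 each). Gria1 averaged 1.49 ± 0.30, 5.69 ± 1.17, 17.1 ± 1.54 and 16.5 ± 1.45, and Grik3 2.52 ± 2.42, 9.65 ± 2.74, 23.7 ± 1.75 and 17.7 ± 0.88 (SD, n = 3 each). In the other direction Grik5 averaged 71.4 ± 2.76, 45.3 ± 1.68, 19.0 ± 0.39 and 23.2 ± 0.61, and Grik2 29.5 ± 9.22, 30.2 ± 1.98, 7.67 ± 0.88 and 6.21 ± 0.83 (SD, n = 3 each). The sum of radial glia markers, of the stem cells that line the ventricle, was 2610 to 2690 and 2620 to 2680 CPM at E11 and E13, and 1200 to 1390 and 974 to 1020 CPM at E17 and P1. At P1 against E11, 6 of the 8 markers were lower, while Slc1a3 and Fabp7 were higher. Of all tested genes 41.8% were lower and 40.5% higher. The part of radial glia in the courses of the members was not tested. The ratios to pan-neuronal counts are descriptions and carry no test.

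**Figure D4:**
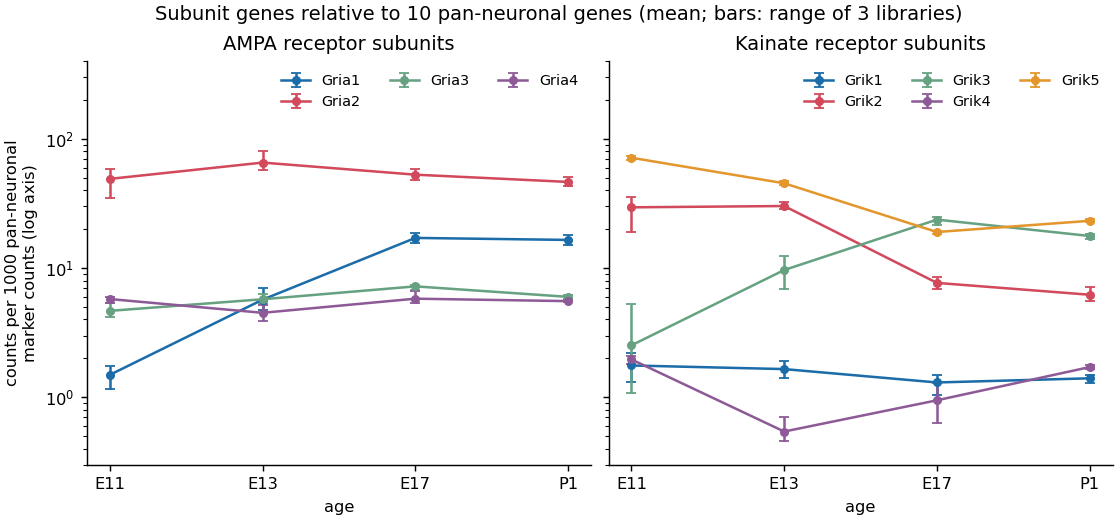
Counts of each subunit gene per 1000 counts of the 10 pan-neuronal genes, on a log axis, as the mean and range of the 3 libraries of an age. Gria1 and Grik3 climb to 17.1 and 23.7 at E17, Gria4 and Grik1 run nearly flat, and Grik2 and Grik5 drop to 7.67 and 19.0 at E17.

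Promoters of 6 of the 9 genes were in the RefSeq promoter table (build GRCm38.p6), which spans 250 bases before to 50 after the start. Gria1, Gria3 and Grik1 were not matched. The promoters of Gria2 and Grik3 are printed because Gria2 had the most reads among the members and Grik3 the largest rise among the 6, and the capitals mark the motif matches. Positions are those of the table, since no source used here gives the build behind the counts.
Gria2 (chr3:80802786-80803085, minus strand): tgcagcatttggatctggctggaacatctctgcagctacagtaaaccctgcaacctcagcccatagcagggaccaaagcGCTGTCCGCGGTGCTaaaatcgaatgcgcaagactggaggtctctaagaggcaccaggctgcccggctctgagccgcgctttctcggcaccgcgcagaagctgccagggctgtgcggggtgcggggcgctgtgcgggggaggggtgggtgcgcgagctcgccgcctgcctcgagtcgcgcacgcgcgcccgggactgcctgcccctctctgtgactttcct
Grik3 (chr4:125490446-125490745, plus strand): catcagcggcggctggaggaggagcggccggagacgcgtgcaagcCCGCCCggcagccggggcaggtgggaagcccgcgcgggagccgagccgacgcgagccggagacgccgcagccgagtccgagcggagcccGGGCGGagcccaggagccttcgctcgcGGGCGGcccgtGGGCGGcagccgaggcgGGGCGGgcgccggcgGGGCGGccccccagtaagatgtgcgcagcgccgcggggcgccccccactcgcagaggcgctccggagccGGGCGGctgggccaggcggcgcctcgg
In Gria2 the capitals are the core of an RE1 element, searched with any base at its middle pair and found on the strand opposite to the gene, 171 to 157 bases before the start. RE1 is the sequence bound by REST, a repressor of neuronal genes in non-neuronal cells, and an RE1-like silencer is known from the GluA2 gene promoter of the rat. The core was in 10 of 32851 promoters of the table. In Grik3 the capitals are 7 GC boxes (GGGCGG, 6 on the gene's strand and 1 on the other), a motif also in the promoters of Grik4 and Grik5 and in 35.66% of all. The same search on both strands found CCAAT in Gria4 (37.41% of all promoters) and found TGACGTCA, CAGATG and TATAAA in none of the 6. The motifs did not overlap each other in these promoters, and a match is a description of letters only.

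Transcripts of most AMPA receptor auxiliary subunits were higher over the same span. Of 13 genes of AMPA receptor auxiliary subunits (TARPs, cornichons, Shisa proteins and GSG1L, which steer trafficking and gating), 12 were higher and 1 lower at P1 than at E11, where 40.5% of all tested genes were higher and 41.8% lower, with a median log2 fold change of 3.75. Cacng3, the TARP gamma-3, had 1662 counts in the P1 libraries and 1 count in the E11 libraries. Relative to the library totals without TMM scaling this was a ratio of 1190, with an exact 95% interval of 213 to 47000. The interval pools the 3 animals of an age, covers counting error only and leaves out the spread between animals. Shisa9 (CKAMP44) averaged 52.9 ± 7.21 CPM at P1 and 0.22 ± 0.12 CPM at E11 (SD, n = 3 each), a 235-fold rise (adjusted p = 5.03e-13). Shisa8 was the gene called lower, with 0.90 ± 0.14 CPM at P1 against 1.59 ± 0.47 CPM at E11 (SD, n = 3 each, adjusted p = 0.0286). That call was lost in DESeq2 (adjusted p = 0.057) and without E11 A (0.0559), E11 B (0.133), P1 A (0.0589) or P1 B (0.109). At E13 compared with E11, 11 of the 13 were higher (22.6% of all tested genes), with 3.12 on the log2 scale for Shisa9. At E17 compared with E13, 12 were higher (36.8% of all tested genes), with 5.67 for Cacng3, and Shisa8 was lower. At P1 compared with E17, 8 were higher and none lower, where 24% of all tested genes were higher and 25.9% lower. The largest rise at that step among genes with at least 1 CPM at either age was that of Shisa6 (0.76, adjusted p = 0.000865).

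Of 5 assembly factors, which act on AMPA receptors in the endoplasmic reticulum or limit their delivery, 3 were higher at P1 than at E11 and 2 did not pass, where 82.3% of all tested genes passed and 40.5% were higher. Frrs1l, which is needed for AMPA receptor assembly, averaged 125 ± 6.79 CPM at P1 and 17.8 ± 0.99 CPM at E11 (SD, n = 3 each), a 7.02-fold rise (adjusted p = 9.24e-13). Porcn, an acyltransferase also known to bind AMPA receptors, had a log2 fold change of 2.16 (adjusted p = 1.77e-08). Sacm1l was lower at P1 than at E17 by 0.38 on the log2 scale (adjusted p = 9.64e-05). For kainate receptors, all 3 tested genes of their auxiliary subunits and ligands were higher at P1 than at E11, and C1ql2 was too low to test. Neto1, an auxiliary subunit that slows kainate receptor gating, averaged 62.5 ± 2.09 CPM at P1 and 0.65 ± 0.19 CPM at E11 (SD, n = 3 each), a 96.2-fold rise (adjusted p = 1.27e-13). Its largest step was E17 against E13, with 42.0 ± 3.84 against 1.10 ± 0.08 CPM (SD, n = 3 each, adjusted p = 3.3e-12). C1ql3, a secreted ligand that binds kainate receptors, was 20.4-fold higher at P1 than at E11 (adjusted p = 3.99e-09).

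Scaffold and trafficking genes were mixed. Of 14, 11 were higher and 1 lower at P1 than at E11, where 40.5% of all tested genes were higher and 41.8% lower. Their median log2 fold change was 1.21. Dlg2 (PSD-93) and Grip2, a PDZ protein that binds GluA2 and GluA3, had log2 fold changes of 7.46 (adjusted p = 4.5e-12) and 6.60 (adjusted p = 7.15e-12). Dlg1 (SAP97), which binds GluA1, was the lower one, with 49.4 ± 3.29 CPM at P1 and 163 ± 8.89 CPM at E11 (SD, n = 3 each, adjusted p = 4.94e-12). It was lower at each of the 3 steps, by 0.42 on the log2 scale at E13 against E11 (adjusted p = 7.16e-05) and by 0.33 at P1 against E17 (adjusted p = 0.000419). Nptxr, a neuronal pentraxin receptor that clusters AMPA receptors, was 2-fold higher at P1 than at E17 (adjusted p = 9.19e-06). Arc, which drives AMPA receptor uptake from the surface, averaged 2.13 ± 0.56, 6.78 ± 0.85, 2.43 ± 0.32 and 2.33 ± 0.33 CPM at the 4 ages (SD, n = 3 each). It was higher at E13 than at E11 by 1.665 on the log2 scale (adjusted p = 2.24e-05). At E17 it was lower than at E13 by 1.47 (adjusted p = 1.02e-05), and it was not called at P1 against E11.

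Adarb1, whose product edits the Gria2 codon printed above, had 21.8, 20.9 and 22.9 CPM at E11, 21.3, 23.6 and 22.3 CPM at E13, 68.7, 63.2 and 57.7 CPM at E17 and 105, 99.8 and 113 CPM at P1. The E13 and E11 libraries overlapped and Adarb1 was not called between them, while Gria2 was 2.78-fold higher. At E17 compared with E13 both rose, by log2 fold changes of 1.49 for Adarb1 (adjusted p = 5.17e-10) and 1.66 for Gria2. At P1 Adarb1 was 1.67-fold higher than at E17 (adjusted p = 4.66e-06), where Gria2 had -0.16 ± 0.19 SE on the log2 scale (adjusted p = 0.512). A difference between the genes' changes was not tested. All 3 editing genes were higher at P1 than at E11, where 40.5% of all tested genes were higher and 41.8% lower. The rise was 4.83-fold for Adarb1 and 55-fold for Adarb2, which has no known editing activity.

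Other ionotropic glutamate receptor genes were also higher at P1. Grid1, a relative that acts as a synaptic adhesion protein, was 21.9-fold higher at P1 than at E11 (adjusted p = 4.49e-13). Of 7 NMDA receptor genes 6 were tested. All 6 were higher at P1 than at E11, where 40.5% of all tested genes were higher. Their median log2 fold change was 5.74, against 2.97 for the 9 AMPA and kainate genes. At E13 compared with E11, 3 of the 6 NMDA genes passed, where 40.1% of all tested genes did. The difference between the families was not tested. Grin2b, the main early partner subunit, had 771 ± 16 CPM at P1 and 1.37 ± 0.24 CPM at E11 (SD, n = 3 each).

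Among the members, Gria3 and Gria4 were most alike in course, with a root mean square difference of 0.315 between their log2 CPM values over the 12 libraries, each gene centred on its own mean. Grik2 and Grik3 were the least alike, at 2.44. The same measure was used to find, among 13226 other genes with a mean of at least 1 CPM, those nearest to each member. Genes without a symbol, names starting with Gm and a digit or ending in Rik, Y-linked genes and Xist were left out of this search. Nearest to Gria1 were Fam135b (0.151) and Nxph3 (0.171), to Gria2 Kcnb2 (0.129) and Prkca (0.135), and to Gria3 Pak7 (0.157) and Aldh1l2 (0.159). Nearest to Gria4 were Sh3bp5 (0.138) and Reep1 (0.139), to Grik1 Pdzd4 (0.180) and B3galt1 (0.183), and to Grik5 Rimklb (0.0499) and Pfkm (0.0509). Grik2 lay nearest to Tcf4 (0.106), at 505, 991, 1150 and 871 CPM from E11 to P1, and then Prox1 (0.170). Grik4 lay nearest to Syne1 (0.164), at 10.8, 5.70, 36.9 and 75.3 CPM, and then Cobl (0.210), which share its low at E13. Grik3 had no close neighbour, with Lrrtm2 at 0.414 and the GABAergic marker Gad1 at 0.520. All these genes share the 12 libraries and the course of age, so the nearness is a description.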

How the data were processed

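The deposited values are raw read counts per Ensembl gene identifier, which the authors did not normalize, per the file headers and values. Per the labels' protocols, poly(A)+ libraries were made with a stranded kit and sequenced as 75 bp single reads. The submitters' processing notes list STAR 2.5.2b and HTSeq 0.5.3 among their tools. No source used here gives the genome build, annotation or strand setting. Symbols were found for 50376 of 50600 identifiers, and the others took 0.067 to 0.088% of the counts.

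With edgeR 4.0.16 in R 4.3.3, filterByExpr (minimum count 10) kept 17847 genes, TMM factors were 0.92 to 1.09, and all 12 libraries entered a robust quasi-likelihood fit with age as the only factor. The two-sided p-values were adjusted (Benjamini-Hochberg) across the genes kept, and 0.05 was the threshold. SEs are of fitted log2 values, and CPM are counts over the TMM-scaled library size. With 3 libraries of separate animals per age, each test borrows its spread from other genes. Alternatives were other scaling factors (RLE, upper-quartile, library size alone), other low-count filters, DESeq2 1.42.0, limma 3.58.1 (voom), erythroid genes removed, a block for replicate letter, a fit of only the ages compared, and libraries left out. The pipeline was tested on simulated data. Exon-union and coding lengths are from GENCODE M21, whose annotation may differ from that used for counting. The subunit shares were tested over all 369600 divisions of the 12 libraries into 4 ages. MicroRNA or other small RNA genes lie inside exons of Gria2, Gria3, Gria4 and Grik4 on the same strand, the largest overlap being 111 bases in Gria2, and how reads there were assigned is not known. Named pathway genes are, in each list, the 2 largest rises and falls past the threshold at P1 against E11, and the largest at each step, with at least 1 CPM at 1 age. Where several comparisons named a gene, not all are printed. A result that the rule names is not reported here. The members and lists were chosen with earlier results of these data known.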

Additional observations from a re-analysis of the deposited data

How the results depend on the processing

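Of 207 values per comparison (9 members under 23 alternatives), the side of the threshold and the direction were kept in 207 for E17 against E13, 207 for P1 against E11, 202 for E13 against E11 (all 5 lost were Grik4) and 199 for P1 against E17 (8 gained, of Gria3, Grik2 and Grik3). With only the E17 and P1 libraries fitted, 4 members were called between them in place of 2. Pairing by replicate letter was not seen in the correlation of deviations between libraries of different ages. Of 18 pairs with the same letter, 4 were over 0.1 (range -0.343 to 0.33), the highest being E11 C with E13 C. Of 36 pairs with different letters, 13 were over 0.1 (range -0.342 to 0.315). With the replicate block, 9, 8, 3 and 9 members were called in the 4 comparisons, where Gria3 was gained between E17 and P1 (adjusted p = 0.027). For shares, P1 minus E11, Gria3 had -1.61 points, with 0.21 by reads and 0.25 by coding length. Leaving out 1 library gave -2.5 to -0.63 points. The adjusted p of the exact permutation test across the 4 ages was 0.321 by reads and 0.307 by coding length. Gria4 had -7.21 points, with -2.23 by reads and -2.16 by coding length. It had -5.62 points with E17 A, E11 C and E13 C removed, where the adjusted p across the 4 ages was 0.0955. The cause of this was not tested. Without E11 A the Gria3 share passed in the test across the 4 ages (adjusted p = 0.0325). In 943 values of the named pathway genes, 12 lost their call (Shisa8 at P1 against E11 and Porcn at P1 against E17), and none changed direction. Low counts at E11 (59 to 90 per library for Gria1, 54 to 269 for Grik3, 66 to 102 for Grik1, 94 to 100 for Grik4) and 48 to 68 for Grik4 at E13 limit the precision of folds that rest on them.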
